A study of Mus musculus with 2 samples.

Results

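HIRA peaks in intergenic repeats were examined in the peak list of 1 ChIPseq library. Its chromatin came from a single pool of 30 wild type hearts of CD1 mouse embryos at E12.5. The chromatin was cross-linked with EGS and formaldehyde, precipitated with the WC15 antibody against HIRA and set against 1 input library of the same kind. No mutant, treatment or replicate enters the list, so the spread between hearts or between precipitations cannot be given, and intervals below cover counting error only. The list holds positions without heights, the read depth is unknown, and whole hearts hold several cell types that the data do not separate. CD1 is an outbred stock, while the mm10 assembly used here comes from another strain, so copies of repeats carried by these hearts may differ from those counted in the assembly.

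A peak was a member when its midpoint lay outside every GENCODE M21 gene body and more than 1 kb from any transcript start, and when at least 50% of its bases were soft-masked. Soft-masked bases are those printed in lower case in the assembly because a masking program marked them as repeats. Peaks with an exact 8-base run of GA or CA, or with 24 or more bases of an exact repeat of period 3 to 6, were left out, which removed 423 and 432 intergenic soft-masked peaks. There were 1821 members among 6624 peaks, or 50.3% (95% Wilson interval 48.7 to 51.9%) of the 3620 intergenic peaks. They were compared with the 761 intronic soft-masked peaks and with the 382 intergenic peaks of mostly unique sequence, chosen by the same exclusions.

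HIRA is a histone chaperone that, with UBN1, CABIN1 and ASF1A, places the histone variant H3.3 on DNA outside replication. It is known for H3.3 at active genes and regulatory elements, while ATRX and DAXX are known for H3.3 at telomeres and silenced repeats. Most repeats of a mouse genome are copies of transposons. LINE-1 elements encode an RNA-binding protein in a first reading frame and an endonuclease with reverse transcriptase in a second, and most copies lack their front end because copying starts at the back of the RNA and stops early. Endogenous retroviruses carry a long terminal repeat (LTR) at each end, with promoter activity, and prime their DNA synthesis with a cellular tRNA. In mouse the IAP elements use tRNA-Phe, MERVL uses tRNA-Leu, VL30 uses tRNA-Gly, the ETn and MusD elements use tRNA-Lys and murine leukaemia virus relatives use tRNA-Pro.

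The members were mostly pieces of a few sequence families, and the sequences that recur are shown first. Of 1821 members, 1647 (90.4%) aligned to at least 1 other member at 80% identity over 80% of the shorter peak, in 71 families joined by single linkage, and the largest family held 1144. In that family 1139 peaks lay in LINE-1, and its medoid, the peak with the most alignments to others of the family, is chr6:74128754-74129230. Of LINE-1, 3 words of 30 bases are given in capitals, each the word shared by the most members of its set, on the sense strand of the element. The sets are the members after the second reading frame, those in the second reading frame and a separate LINE-1 family of 23.
LINE-1 after the second reading frame: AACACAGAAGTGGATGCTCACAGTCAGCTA
LINE-1 second reading frame: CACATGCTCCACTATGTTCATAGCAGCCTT
LINE-1 before the first reading frame: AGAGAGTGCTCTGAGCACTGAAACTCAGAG
The first word occurred in 145 members (7.96%) and in 79 intronic soft-masked peaks (10.4%), and the assembly holds 31761 exact copies of it on both strands. The second occurred in 45 members and 8 intronic peaks, with 29990 copies in the assembly. The last word, at positions 1486 to 1515 of the reference copy described below, occurred in 9 of the 23, whose medoid is chr3:159654728-159655176, and has 3754 copies in the assembly. None of the 3 was found in an intergenic peak of mostly unique sequence, a group that the masking limit nearly clears of LINE-1. The words were picked as the most shared among members, so their counts in members and in intronic peaks are not on equal terms.

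For the next families the medoid is given, cut to its central 300 bases where wider. All are on the plus strand of mm10, and capitals mark the 32-base word with the most copies in the assembly.
Family of 89, chr4:97007954-97008253: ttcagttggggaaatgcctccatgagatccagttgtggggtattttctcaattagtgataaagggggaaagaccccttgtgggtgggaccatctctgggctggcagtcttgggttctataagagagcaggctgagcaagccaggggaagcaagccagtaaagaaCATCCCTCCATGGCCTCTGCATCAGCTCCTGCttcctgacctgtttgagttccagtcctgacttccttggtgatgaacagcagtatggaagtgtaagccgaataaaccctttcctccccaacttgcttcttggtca
Family of 51, chr4:144141884-144142134: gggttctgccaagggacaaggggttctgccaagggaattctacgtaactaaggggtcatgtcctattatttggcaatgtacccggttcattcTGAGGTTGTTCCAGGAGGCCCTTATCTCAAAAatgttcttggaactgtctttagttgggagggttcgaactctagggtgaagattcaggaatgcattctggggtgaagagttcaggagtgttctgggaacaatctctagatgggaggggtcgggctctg
Family of 28, chr13:32637756-32638055: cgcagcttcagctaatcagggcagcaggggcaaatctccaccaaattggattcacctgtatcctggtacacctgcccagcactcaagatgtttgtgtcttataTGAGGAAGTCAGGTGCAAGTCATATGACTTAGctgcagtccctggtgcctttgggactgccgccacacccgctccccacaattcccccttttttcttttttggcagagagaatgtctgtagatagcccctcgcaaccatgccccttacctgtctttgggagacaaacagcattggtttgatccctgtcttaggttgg
Family of 24, chrX:90578041-90578340: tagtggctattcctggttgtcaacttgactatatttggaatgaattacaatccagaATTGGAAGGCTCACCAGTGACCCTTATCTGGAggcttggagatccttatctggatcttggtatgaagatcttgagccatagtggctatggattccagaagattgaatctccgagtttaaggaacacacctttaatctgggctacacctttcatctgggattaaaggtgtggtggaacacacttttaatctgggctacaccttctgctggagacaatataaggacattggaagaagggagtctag
Family of 17, chr10:47455361-47455660: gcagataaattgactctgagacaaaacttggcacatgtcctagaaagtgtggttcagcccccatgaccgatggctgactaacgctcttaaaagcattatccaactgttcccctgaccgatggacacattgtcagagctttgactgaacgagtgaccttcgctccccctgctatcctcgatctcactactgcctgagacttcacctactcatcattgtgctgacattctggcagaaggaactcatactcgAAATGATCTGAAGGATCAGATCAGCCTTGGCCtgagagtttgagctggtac
Family of 14, chrY:63532407-63532609: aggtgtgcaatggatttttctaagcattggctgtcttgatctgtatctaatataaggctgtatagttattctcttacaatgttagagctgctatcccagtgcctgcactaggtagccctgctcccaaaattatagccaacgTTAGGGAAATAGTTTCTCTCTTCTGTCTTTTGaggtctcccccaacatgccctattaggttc
The capital words had 7469, 456, 1695, 2231, 197 and 212 copies in this order. The family of 89 was not placed in a reference copy and is left without a name. It was spread over 20 chromosomes, and around its peaks 88 of 88 other loci aligned to the medoid locus over a shared unit of 394 bases, at a median identity of 94.2%. In the family of 51, 32 peaks lay in elements with a tRNA-Pro primer site. The family of 28 lay in tRNA-Phe elements, the family of 24 in tRNA-Leu elements and 14 of the family of 17 in tRNA-Gly elements. A family of 13, with its medoid at chr6:108916578-108916754, was not placed either and shared a unit of 164 bases at a median identity of 85.9%. The family of 14 lay on the Y chromosome alone.

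By contrast, 174 members had no relative among the members, and in 6 members every 32-base word occurred once in the assembly. One of these, chr2:67209434-67209604, has a GC content of 30.4% and is shown in lower case throughout because no word in it is repeated.
Single-copy member: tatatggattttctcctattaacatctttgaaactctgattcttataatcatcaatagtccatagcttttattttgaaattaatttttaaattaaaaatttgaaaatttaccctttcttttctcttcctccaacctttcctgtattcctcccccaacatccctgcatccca
It lay 14784 bases from the nearest gene and was 53.2% soft-masked, close to the limit of the rule. The single-copy members on chromosomes 6 and 11, at chr6:88072972-88073145, chr11:6067962-6068130, chr11:32446663-32446823 and chr11:98737688-98737865, were 51.7%, 64.5%, 100% and 79.8% soft-masked.

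To place the members on elements, LINE-1 copies with both reading frames and LTR pairs with a tRNA primer site were searched in the assembly around the members. There were 72 such LINE-1 copies, and 1 copy of 7308 bases on chr4:64454573-64461880, with reading frames of 371 and 1281 codons, served as reference. It was chosen because the most members aligned to it among the copies considered. Choosing it this way can by itself raise the LINE-1 share of members over that of windows, and the rate in copies close to it. A peak was placed when its midpoint lay in an alignment of 80% or more identity to a reference copy. The same was done for all 2521378 consecutive windows of 184 bases, the median width of the members, that meet the rule of the members. These windows show what the eligible part of the genome holds, and no test was made against them. The reference copies were sought only within 8000 bases of members, so the LTR types counted are types in which members lie. LTR types with fewer than 10 members in a first alignment to all copies found were left out. The reference of each type was the copy to which the most of its members aligned. Types away from members, or near intronic peaks alone, have no reference, which by itself raises the LTR share of members over that of windows and of intronic peaks.

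LINE-1 held 1172 members, or 64.4% (62.1 to 66.5%). Of the eligible windows, 37.3% lay in LINE-1, so that members were in LINE-1 1.72 times as often as the sequence they could come from. The choice of the reference by member alignments enters this ratio, and how much it adds was not tested. On the autosomes alone the shares were 66.9% of 1494 members and 40.4% of windows. LTR elements held 254 members, or 13.9% (12.4 to 15.6%), against 4.84% of windows. The other 395 members (21.7%) were placed in no reference copy, against 57.8% of windows. Repeats of other kinds were not sought, so in members and windows alike they count as placed in no reference copy. Members placed in none can still be pieces of the elements sought, since 5 of the 1144 peaks of the largest family were not placed in LINE-1. Intronic soft-masked peaks were in LINE-1 as often, with 482 of 761 (63.3%, adjusted p = 0.621, Fisher's exact test, two-sided). The comparisons by element were chosen after the data had been seen and were adjusted over 4 tests. Of the intronic peaks, 64 (8.41%) were placed in LTR elements, and this share is not compared with that of the members because of how the types were found. Of intronic windows, 29.6% lay in LINE-1 and 3.54% in LTR elements, both below the shares of intergenic windows. The test of the LINE-1 shares does not take this difference in eligible sequence into account.

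**Figure D1:**
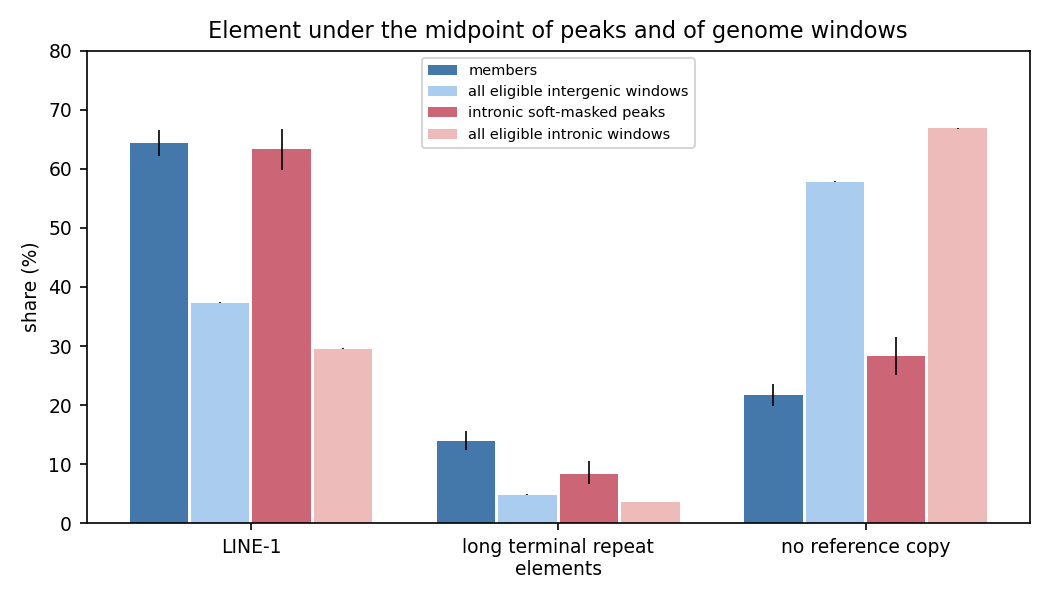
Bars give the share (%) of members, of intronic soft-masked peaks and of all eligible intergenic and intronic windows whose midpoint lies in a LINE-1 copy, in an LTR element of a type found near members or in no reference copy, with 95% Wilson intervals. LINE-1 holds 64.4% of members against 37.3% of intergenic windows, and LTR elements 13.9% against 4.84%.

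Along LINE-1 the members were uneven. The stretch after the second reading frame, at positions 6622 to 7308 of the reference, held 478 of the 1172 LINE-1 members (40.8%, 38.0 to 43.6%), whereas 22.7% of LINE-1 windows fell there. This is 2.24 members per 1000 windows (95% Poisson interval 2.04 to 2.45). In the second reading frame, which encodes the endonuclease and reverse transcriptase, there were 564 members, or 0.982 per 1000 windows (0.903 to 1.07). The first reading frame, which encodes the RNA-binding protein, held 105 members, or 0.90 per 1000 (0.736 to 1.09). Before the first reading frame, where the promoter of the element lies, 20 members were found, or 0.609 per 1000 (0.372 to 0.940). The front of the reference was rarely matched. The 100-base bins up to position 1000 held 129 to 1171 windows each, against 7875 in the bin from 1401. The rate thus rests mostly on the end of this stretch in copies like the reference. It does not stand for LINE-1 promoters in general.

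Within the stretch after the second reading frame most members fell in 4 neighbouring bins. The 100-base bins starting at 6801, 6901, 7001 and 7101 held 93, 140, 150 and 61 members, with 3.15, 4.24, 4.28 and 1.68 members per 1000 windows. The last full bin, from 7201, held 2 members and 32150 windows, or 0.0622 per 1000. The rate is thus high in the middle of this stretch and low at its very end. In the second reading frame the bins starting at 3701 and 3801 held 28 and 26 members, with 2.40 (1.59 to 3.46) and 2.14 (1.4 to 3.14) per 1000, and the bins from 4301 and 5001 held 4 each, with 0.321 and 0.286 per 1000.

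Intronic soft-masked peaks of LINE-1 were more often in the stretch after the second reading frame, with 255 of 482 (52.9%) against 40.8% of the members (adjusted p = 3.09e-05, Fisher's exact test, two-sided). Of intronic LINE-1 windows 27.7% fell there, against 22.7% of intergenic ones. Per 1000 windows the intronic rate was 2.96 (2.61 to 3.35) in this stretch, above the 2.24 of the members, while in the second reading frame both were close, with 1.04 (0.892 to 1.20) and 0.982.

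**Figure D2:**
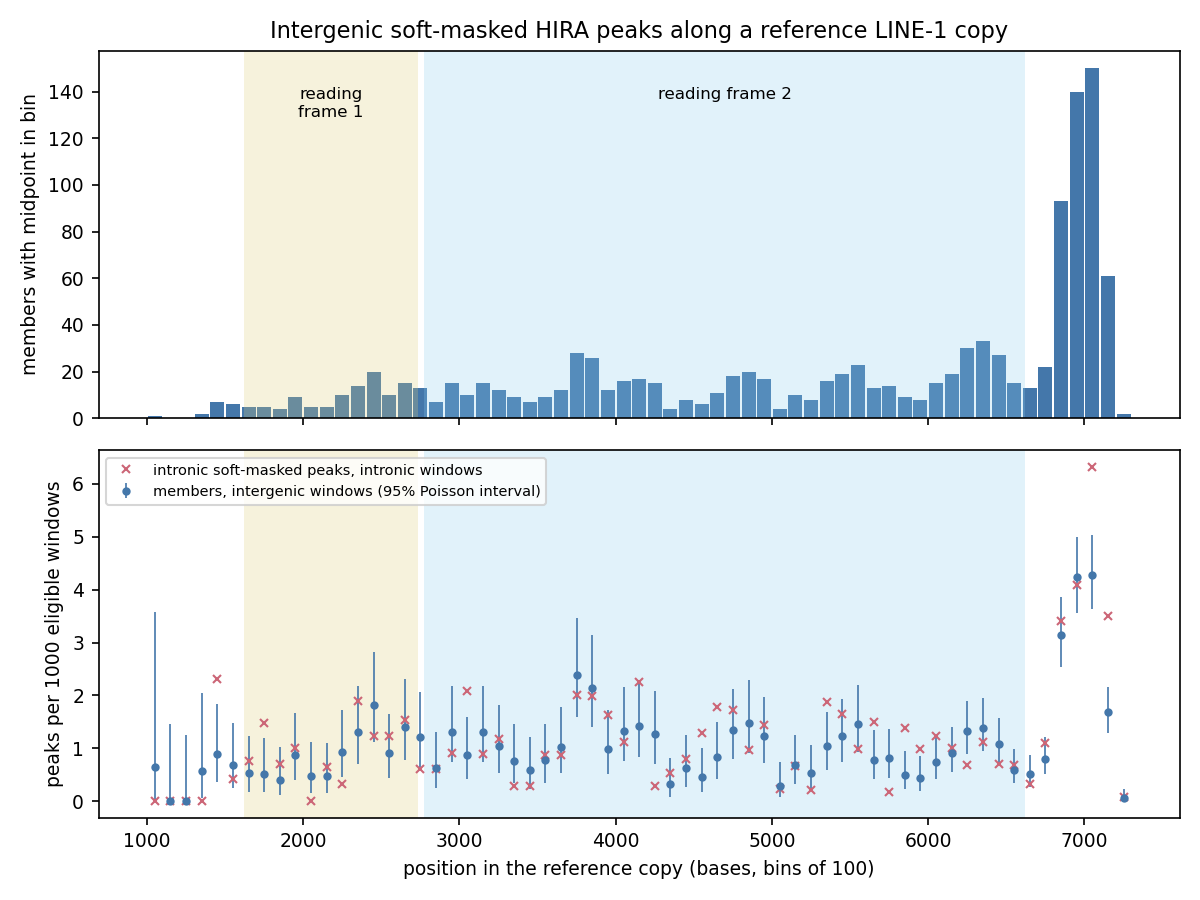
Upper panel, number of members with their midpoint in each 100-base bin of the reference LINE-1 copy from position 1001 on; lower panel, members per 1000 eligible intergenic windows with 95% Poisson intervals, and intronic soft-masked peaks per 1000 eligible intronic windows as crosses. Shading marks the reading frames, and from position 1001 on the rates of both kinds of peak are highest between 6901 and 7100.

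The rate of members differed with the identity of a copy to the reference. Since the reference was the copy to which the most members aligned, this choice can itself raise the rate in copies close to it. How far it did was not tested. At 80 to 85% identity there were 24 members in 178724 windows, or 0.134 per 1000 (0.0860 to 0.20). The rate was 0.894 at 85 to 90%, 1.90 at 90 to 95% and 1.58 at 95 to 100%. The last 2 intervals, 1.75 to 2.05 and 1.4 to 1.77, overlap slightly. In the stretch after the second reading frame alone, the same 4 classes had 0.230, 1.65, 3.50 and 3.13 members per 1000. How reads that align to many places were treated is not stated by the study, and its part in these rates was not tested.

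GC content was set beside the rates of members. Windows in no reference copy had a median GC content of 41.3% and 0.271 members per 1000 windows. LINE-1 windows had 39.1% and 1.24 per 1000, and LTR windows 45.7% and 2.08 per 1000. Within LINE-1, windows after the second reading frame had 46.7% and 2.24 per 1000, and those in it 38.0% and 0.982. The members had a median GC content of 45.1% (44.4 to 45.7%) and the windows 40.2%. LINE-1 members had 42.9% against 39.1% in LINE-1 windows. After the second reading frame the values were 48.5% and 46.7%, and in the second reading frame 39.4% and 38.0%. LTR members had 47.8% against 45.7% in LTR windows, and members in no reference copy 45.9% against 41.3%. The members were thus richer in GC than the windows of the same kind in each case. The part of GC content in the rates was not tested.

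The LTR types, all found near members and kept for the number of members assigned to them, differed among themselves. This choice of types and references can by itself raise their rates over that of all eligible sequence. Elements with a tRNA-Gly primer, as VL30 has, held 49 members in 3598 windows, or 13.6 per 1000 (10.1 to 18). Nearly all of these, 45 members in 2220 windows, aligned to a reference copy of 5216 bases on chr4:149433982-149439197. The front LTR held 17 of the 45, the internal part 26 and the back LTR 2, and the family of 17 accounts for 14 of them. Elements with a tRNA-Pro primer, as murine leukaemia virus relatives have, held 37 members in 9708 windows, or 3.81 per 1000 (2.68 to 5.25). Of these, 32 belonged to the family of 51, and the 250-base bin with the most held 18, at positions 7751 to 8000 of a reference of 8420 bases on chr2:68130044-68138463, near its back end. Since 1 family can be divided between reference copies that resemble each other, the rates of tRNA-Gly and tRNA-Pro elements cannot be fully told apart.

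Elements with a tRNA-Leu primer, as MERVL has, held 47 members, or 2.36 per 1000 windows (1.73 to 3.14), against 0.722 in all eligible sequence. On the reference of 6404 bases at chr14:59301928-59308331 the front LTR held 8 of them and the back LTR 16, or 5.04 per 1000 LTR windows. The internal part held 23, or 1.52 per 1000. Both LTRs of this reference too are 100% identical, so the split between front and back is uncertain for lone LTRs. Of the 47 members, 42 lay in copies of 95% or more identity to the reference, itself chosen as the copy to which the most of them aligned. Among the LTR types this number ranged from 6 of 40 members in a tRNA-Phe type to 34 of 37 in the tRNA-Pro type. The share of windows at this identity is not given, so these counts have no background.

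Elements with a tRNA-Phe primer, as IAP has, held 102 members, or 1.35 per 1000 windows (1.10 to 1.63). They were of 3 types that differed in rate. A short type of 2872 bases, at chr1:22157394-22160265, held 40 members (3.55 per 1000, 2.53 to 4.83). Of these, 14 lay in the front LTR, 13 between the LTRs and 13 in the back LTR. Per 1000 windows this was 6.55 in its LTRs and 1.82 between them. The LTRs of this reference are 98.9% identical, so front and back are uncertain for a lone LTR. The long types of 7082 and 7088 bases held 50 and 12 members, or 0.988 (0.734 to 1.30) and 0.862 (0.445 to 1.51) per 1000. In the type of 7082 bases, 41 of 50 members lay between the LTRs, as did 44024 of its 50592 windows. Its rate was 0.931 per 1000 windows between the LTRs and 1.37 in them. Elements with a tRNA-Lys primer held 19 members, or 1.46 per 1000 (0.879 to 2.28).

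**Figure D3:**
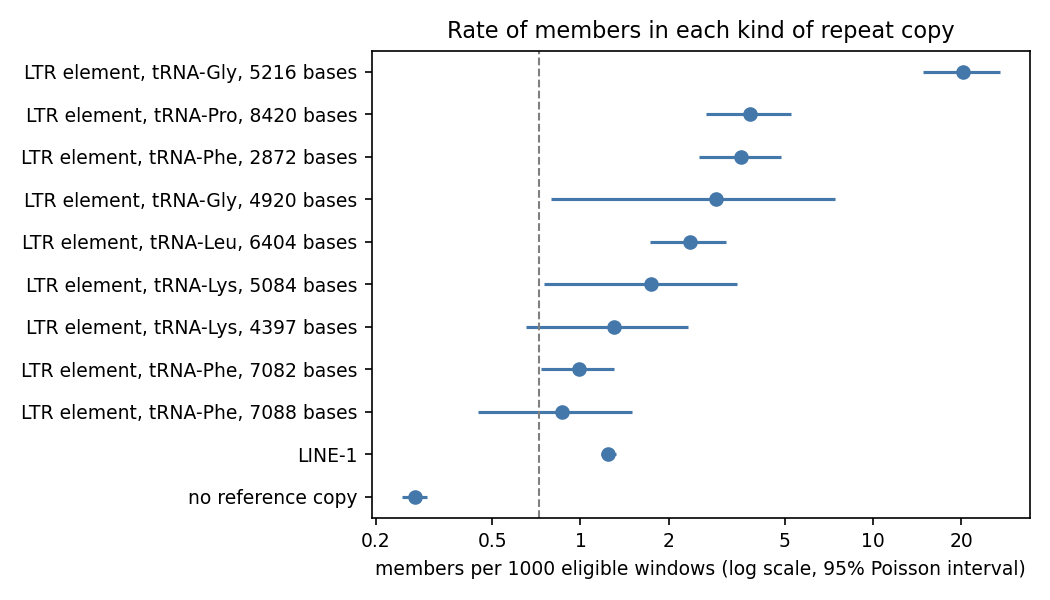
Points give members per 1000 eligible windows on a log scale, with 95% Poisson intervals, for sequence in no reference copy, for LINE-1 and for each LTR element type by its primer tRNA and reference length. The dashed line is the 0.722 of all eligible windows, and the tRNA-Gly type of 5216 bases is highest at 20.3. LTR types with fewer than 10 members in a first alignment were left out.

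The number of copies of the words in a peak is no term of the rule, but soft-masking marks repeated sequence, so the contrast with mostly unique peaks is fixed by the rule. In 1815 members (99.7%) at least 1 word of 32 bases had more than 1 copy in the assembly, as in 92.4% of windows, and 1242 (68.2%, 66.0 to 70.3%) were made of such words only. The median member had a median of 1156 copies of its words, with quartiles of 140 and 5009. These window values come from every 100th eligible window (25214 windows), in which the median was 7, and 32.1% were made of repeated words only. LINE-1 members had a median of 3037 copies, LTR members 320 and the rest 59. The member with the most copies, at chr6:66889360-66889525, had a median of 21056 and lay at position 6458 of LINE-1, and the next, at chr17:39418296-39418471, had 20963 and lay at the same position. The 3 members after these, at chr3:72381349-72381527, chr3:114302508-114302686 and chr10:105970986-105971150, had 20737, 20341 and 20308 and lay at positions 6443, 7069 and 7084.

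**Figure D4:**
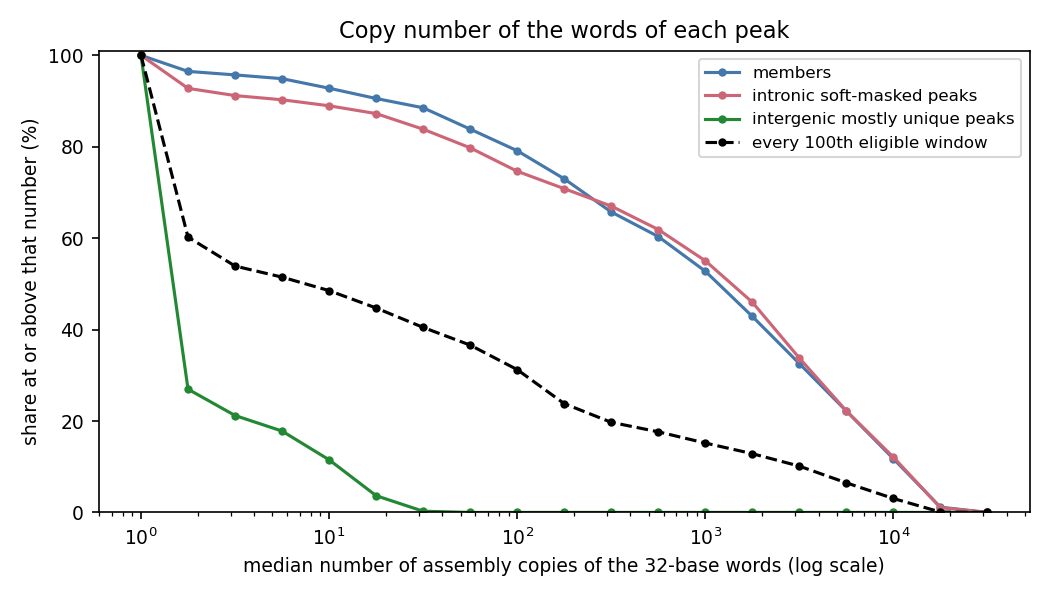
Each line gives the share (%) of peaks or windows whose 32-base words have at least the median number of assembly copies on the x axis (log scale). Members and intronic soft-masked peaks run close together, with 52.8% and 55.1% above 1000 copies, against 15.2% of windows; the mostly unique intergenic peaks, low by the rule, have 0 of 382 there.

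Members and intronic soft-masked peaks differed in several of these features. Families were more frequent among the members (90.4% against 83.6% of intronic peaks, adjusted p = 7.28e-06, Fisher's exact test, two-sided, adjusted over 10 tests). Relatives were sought within each group alone, and the larger group of members offers more possible relatives. This test therefore cannot separate a difference in sequence from the difference in group size. At least 1 repeated word was present in 99.7% against 98.6% (adjusted p = 0.00671, the same exact test), and peaks of repeated words only made up 68.2% against 63.5% (adjusted p = 0.0438). Both of these calls on repeated words depend on the setting. The first was lost with 24-base words, and each was lost at 80% masking, in wider peaks and with 1 member per family, where the adjusted p was 0.119 and 0.532 (Fisher's exact test). The second was also lost on autosomes alone (adjusted p = 0.222, Fisher's exact test). Runs of 20 or more purines or pyrimidines were rarer in the members, with 3.19% against 7.10% (adjusted p = 6.29e-05, Fisher's exact test). They were found in 3.50% of eligible intergenic windows. Peaks were searched over their full width and windows are of fixed width, so these shares are not on equal terms. No share of intronic windows is given, so the intronic value has no background. Runs of 10 A or T were found in 3.62% against 4.60% (adjusted p = 0.265, Fisher's exact test). Peaks of 1 family share sequence and are not independent, so these p-values describe this list and say nothing of variation between hearts.

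The members had a median width of 184 bases (183 to 186) and a range of 158 to 676. Of them 256 (14.1%) were wider than 250 bases, against 17.1% of intronic soft-masked peaks and 17.8% of mostly unique intergenic peaks (adjusted p = 0.0749 in both, Fisher's exact test). The widest, of 676 bases at chr4:99287987-99288662, lay at position 6701 of LINE-1. The next, of 654 bases at chr7:88267576-88268229, lay in no reference copy, had a GC content of 30.3% and a median of 45 copies. Members of 599 bases at chr8:29861959-29862557, at position 6415 of LINE-1, and of 593 bases at chr11:106946530-106947122, in no reference copy, followed. Width over 250 bases was found in 17.3% of LTR members and 15.3% of LINE-1 members (adjusted p = 0.594, Fisher's exact test), and in 8.35% of the rest. Another peak lay within 10 kb of 174 members (9.56%), against 7.10% of intronic soft-masked and 6.54% of mostly unique intergenic peaks (adjusted p = 0.0749 in both, Fisher's exact test).

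The soft-masked block that held a member had a median of 1492 bases against 1075 for intronic soft-masked peaks, and 406 members lay in blocks over 5000 bases. Most members were masked throughout, 1647 of 1821 (90.4%). Only 18 members were under 60% masked, and 30 peaks with 40 to 50% fell below the limit. The members just above the limit, at chr4:54038719-54038883, chr6:88072972-88073145 and chr6:34530490-34530674, were 50.3%, 51.7% and 51.9% masked, and the peaks just below it, at chr14:34154496-34154660, chr17:44161960-44162142 and chr3:140548618-140548792, were 49.7%, 49.2% and 49.1% masked.

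By chromosome, the density of members was lowest on the Y. The autosomes ranged from 3.27 members per Mb of eligible sequence on chromosome 11 to 5.14 on chromosome 7. The X chromosome carried 215 members, and its density was 1.01 times (0.873 to 1.17) that of the autosomes. The Y chromosome carried 112 members, at 0.373 times (0.305 to 0.452) the autosomal density. The sex of the pooled embryos is not stated, so the dose of X and Y in the chromatin is unknown. Its part in these ratios was not tested. Only 22.3% of the Y members lay in LINE-1, against 14.9% of eligible Y windows. Within LINE-1 the Y had 0.444 members per 1000 windows (0.288 to 0.656) and the autosomes 1.32 (1.24 to 1.4). Within LTR elements they had 2.29 (1.14 to 4.10) and 2.02 (1.75 to 2.31), and outside both 0.240 (0.189 to 0.301) and 0.279 (0.247 to 0.313). The share of peaks on the Y was higher among the members (6.15%) than among the intronic soft-masked peaks (1.05%, adjusted p = 4.74e-09, Fisher's exact test). The Y held 15.0% of eligible intergenic windows and 2.23% of eligible intronic windows, so both shares were below that of the windows, and the test compares groups whose eligible sequence differs on the Y.

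**Figure D5:**
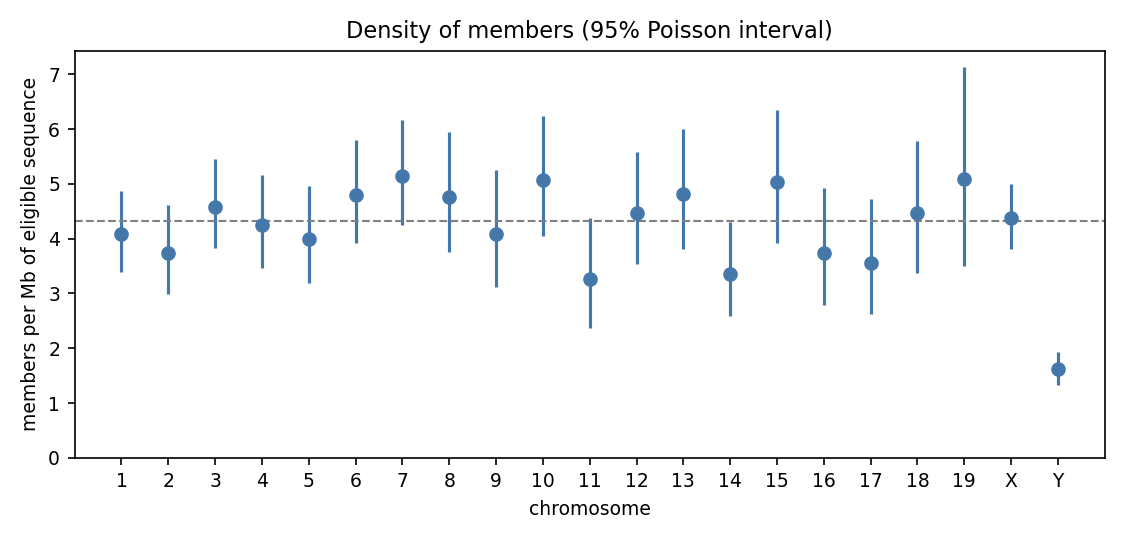
Points give the members per Mb of eligible sequence on each chromosome with 95% Poisson intervals, and the dashed line is the density of all autosomes together. The X chromosome is at 1.01 times and the Y chromosome at 0.373 times that line. The sex of the pooled embryos, and so the dose of X and Y, is unknown.

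Some families were local. Of 27 families with 5 or more members, 10 were found on 1 chromosome only, 5 of them on the Y with 38 members and 3 on the X with 22. The family of 14 on the Y spanned 61698 kb, and its 13 other loci aligned to the medoid locus over 5989 bases around the peak at a median identity of 98.9%, far beyond the peak itself. Only about this length was searched, so the shared stretch may be longer. The X families, of 9, 7 and 6 members, all lay between positions 123497959 and 126008810 and were poor in GC, with medians of 26.5%, 28.4% and 27.8%. On chromosome 6, families of 7 and 5 members spanned 102 kb and 100.0 kb between positions 114496703 and 114611601 and were rich in GC, with 56.1% and 61.5%.

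The members were far from genes, as the eligible sequence is. Their median distance to a transcript start was 24155 bases (22748 to 26282), that of the windows was 24215, and the nearest protein-coding gene was at a median of 96699 bases. Beyond 100 kb lay 11.6% of members and 12.4% of windows. A member lay within 50 kb of 1181 protein-coding genes, or 5.38% of 21938. Of fixed lists of genes, 0 of 19 sarcomere genes, 1 of 20 cardiac transcription factor genes, 0 of 15 ion channel and calcium handling genes, 0 of 10 genes of H3.3 and its chaperones and 1 of 16 repeat silencing genes had one. These shares rest on 1 gene at most and were not tested. The repeat silencing gene was Cbx3, which encodes the heterochromatin protein HP1 gamma, with a member at chr6:51484707-51484899, 1099 bases downstream. The cardiac gene was Hey2, a target of Notch signalling in the ventricle, with a member at chr10:30824639-30824824, 7627 bases downstream. Both members lay in no reference copy and had a median of 1 copy of their words.

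Short motifs were searched on both strands in the central 184 bases of each member and in all eligible windows. CG was found in 74.1% of members (72.0 to 76.0%) and 62.7% of windows. AATAAA, the polyadenylation signal, was found in 14.7% (13.2 to 16.4%) and 27.5%, and TATAAA in 15.1% (13.5 to 16.8%) and 19.6%. AGATAA, bound by GATA factors, was found in 9.56% and 11%, AAGTG, bound by NK2 class factors such as NKX2.5, in 36.5% and 35.9%, and AGGTGT, bound by T-box factors, in 7.52% and 8.55%. CATTCC, bound by TEAD factors, was found in 9.56% and 10.3%, CACGTG in 1.32% and 1.36% and GAGAG in 31.1% and 31.7%. Peaks and windows with an exact 8-base GA run were removed by the rule. The GAGAG shares therefore leave out GA repeats and cannot show whether HIRA peaks favour them. The MEF2 site was found in 1.04% and 2.27%, and the CTCF core in 0 of 1821 members and 0.0242% of windows. Within LINE-1 alone, CG was found in 78.1% of members and 68.8% of windows, AAGTG in 44.3% and 39.4% and GAGAG in 31.8% and 26.5%. Lower in LINE-1 members than in LINE-1 windows were AATAAA with 12.8% and 22.7%, TATAAA with 19.2% and 22.9%, AGATAA with 6.31% and 9.04%, AGGTGT with 4.95% and 6.50% and CATTCC with 6.91% and 9.58%. CACGTG was found in 1.19% and 1.38% and the MEF2 site in 0.768% and 1.44%. A match is a stretch of letters and not a bound site.

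Matches to reference RNAs did not name the rest. Of the members 1652 matched some protein-coding transcript, 1736 a long non-coding or other transcript and 664 a small non-coding RNA, with a median aligned length of 55 bases in the last. Transcripts often carry transposon pieces, so such a match names no source. None of the 1821 members matched a tRNA gene or the mitochondrial genome at this E value of 1e-05.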

How the data were processed

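The deposited file gives the positions of 6624 peaks, with no score. As its methods state, the authors aligned paired-end reads to mm10 with bowtie2, removed duplicates and called peaks with the MACS algorithm in Strand NGS. The file header names the input as control and gives a p-value cutoff of 0.0010, a fragment length of 200 and enrichment factor limits of 5 and 50, whereas the methods state a stricter cutoff; which of these made the list is not known. The treatment of reads with several alignments is not given in the sources used here, and depth is unknown since the reads were not analysed here. Repeats are the places where both could move the measurements.

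Members, lists and tests were chosen with earlier results of these data known. The regions named are the 5 widest members, the medoids of the 10 largest families, the 5 members with the most and the 5 with the fewest word copies, members near listed genes and the peaks beside the 50% limit; of these, 2 on chromosome 18, a wide member and a medoid, are not reported here. Families and reference copies were searched with blastn 2.17.0 (80% identity, E value of 1e-20 for copies in the assembly). LTR pairs of 95% identity were kept within 8000 bases of members, and a primer site is 18 bases with up to 2 mismatches. Shares have 95% Wilson intervals, rates exact Poisson intervals, and groups were compared with two-sided Fisher's exact tests in SciPy 1.17.1 under Python 3.11.15, with Benjamini-Hochberg adjustment, after tests on simulated data. Against mostly unique intergenic peaks, only width and spacing were tested, since the other measures depend on soft-masking. Alternatives changed the masking limit, gene annotation, peak width, chromosomes, word length, gene distance and families.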

Additional observations from a re-analysis of the deposited data

How the results depend on the processing

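Of 136 alternative values for 18 results, 107 stayed on the same side of the threshold, within the error or, for counts, within 1.5 times the value reported, 20 moved, 8 lost significance, 1 gained it and 0 reversed. The share with a repeated 32-base word became 99.9% at 80% masking (adjusted p = 0.552, Fisher's exact test), 100% in peaks wider than the median (adjusted p = 0.0723), 97.6% with 1 member per family (adjusted p = 0.119) and 100% with 24-base words (adjusted p = 1). The share made only of repeated words became 69.8% (adjusted p = 0.287), 67.7% (adjusted p = 0.399) and 50.6% (adjusted p = 0.532) under the first 3 of these and 65.7% on autosomes alone (adjusted p = 0.222, exact test). With RefSeq genes 11.2% of members lay within 10 kb of another peak (adjusted p = 0.00306, exact test). With no repeat exclusions there were 2676 members. Wider peaks left 874 members of median width 215 bases, near 550 genes. With 1 member per family there were 245 members, a block of 530 bases, a start distance of 16473 bases, 236 genes nearby, X and Y density ratios of 0.571 and 0.808, and 3.27% in LINE-1, of which 13% after the second reading frame; this setting by construction reduces the largest family to 1 peak. The start distance was 22608.5 bases with RefSeq and 22370 with protein-coding genes only. At 80% masking the Y ratio was 0.260. The LINE-1 share was 67.1% at 80% masking, 66.6% in wider peaks and 66.9% on autosomes, where GC content was 46.0%. Within 5 kb and 100 kb there were 105 and 2229 genes. Except where the construction is given, the cause was not tested. The Y share and density ratios have no value on autosomes alone, nor the family share with 1 member per family. No paired analysis was possible because the list comes from 1 library pair.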
